A study of Mus musculus with 3 samples.

Results

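Transcription factor genes that direct the fate of innate-like lymphocytes, 10 in all, were followed on arrays of γδNKT thymocytes with different doses of functional PLZF. They are Rora, Maf, Gata3, Tbx21, Eomes, Tox, Tox2, Runx3, Runx1 and Nfil3. They were chosen by name, and a gene was measured through a probe set annotated with that gene alone. All 10 had such a probe set, exactly 1 each, among 19518 genes measured in this way. PLZFlu/lu mice are homozygous for luxoid, a point mutation in the PLZF gene Zbtb16, PLZF+/lu mice are heterozygous and PLZF+/+ mice carry 2 intact alleles. All of them also lack Rag1 and carry a Vγ1Vδ6.4 T cell receptor transgene, so that the γδNKT receptor is the one they express, and all were females of the C57Bl/6 background with thymi taken at 3 to 4 weeks of age. CD4+CD8α− thymocytes were sorted in 2 rounds and their total RNA was measured on whole-transcript arrays (Mouse Gene 1.0 ST, Affymetrix), 1 array per genotype. The study states that a majority of CD4+CD8− thymocytes in such transgenic mice express PLZF, so the sorted cells need not all be PLZF-positive. The sources used here do not give the number of mice behind an array.

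These factors divide lymphocyte effector programmes among themselves. T-bet (Tbx21) and eomesodermin (Eomes) drive the type 1 programme of IFNγ and cytotoxicity, GATA3 and c-Maf the type 2 programme with IL-4, and RORα shares with RORγt a role in type 3 cells and is required for innate lymphoid cells that make type 2 cytokines. TOX, RUNX and NFIL3 proteins act earlier, in CD4 and CD8 lineage choice and in the emergence of innate lymphoid and NK cells. PLZF itself is the regulator that gives NKT cells and their γδ counterparts an effector character while still in the thymus.

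Values are intensities on a linear scale as deposited, and differences are on the log2 scale. With 1 array per genotype there is no test and no error, precision is limited by that number, and differences past 2-fold are picked out by size alone. The 1033 probe sets of olfactory receptors, genes that T cells are not known to use, served as background, and 95% of their values lay below 108. Medians of the 3 arrays were 159.7 to 161.8. Of all genes, 46.8% have the same value to within 1e-06 on the log2 scale in all 3 arrays, so an equal value is a common outcome of the deposited processing. Zbtb16 was at 2890 in PLZFlu/lu, 6143 in PLZF+/lu and 8796 in PLZF+/+ cells. The luxoid transcript can still bind the probes, so this level is only a partial check of the genotypes. T cell markers were bright on every array, with Cd3e at 10599, 11334 and 10550 in the same order. Klrb1c, which encodes NK1.1, was at 29.5 on each array and so below background, as were all 4 markers of NK cells. Of B cell markers 3 of 6 measured genes were above background on at least 1 array, with Cd79b at 1406 in PLZFlu/lu, 1440 in PLZF+/lu and 1658 in PLZF+/+ cells, and Cd79a and Ms4a1 were below it. Of myeloid markers 5 of 9 were above background, the brightest being Cd68 at 386 on each array, and Lyz2 and Csf1r were below it. Summed over the lists, B cell markers came to 1734, 1762 and 1979 and myeloid markers to 1128, 1138 and 1131 in the same order, and their part in the results was not tested.

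In PLZFlu/lu thymocytes 8 of the 10 regulators had lower intensities than in PLZF+/+ thymocytes, 2 were equal and none was higher, while rescaling the arrays made 8 or 9 lower and turned up to 2, Tox and Tbx21, higher by less than 0.01 on the log2 scale. Of all genes, 24.9% were lower and 58.1% equal. Rora, Maf and Tox2 were lower by more than 2-fold, 3 of 10, against 0.272% of all genes (53 of 19518). No regulator was higher by more than 2-fold, and 0.159% of all genes were. The median log2 difference of the 10 was -0.29, and that of all genes was 0.00. Among the 11973 genes brighter than 108 on at least 1 array, 35.7% were lower, as were 7 of the 8 regulators in that group. The study itself drew attention to Rora and Maf from these same arrays, so that the count is not independent evidence about the list. Fewer cells that use a gene and less RNA per cell cannot be told apart in sorted bulk RNA.

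**Figure D1:**
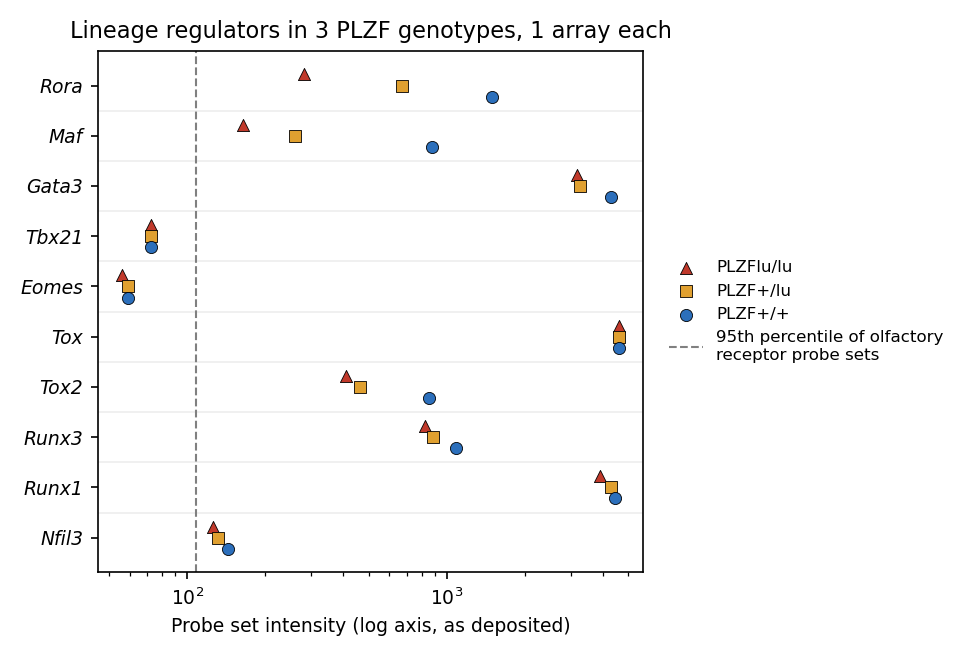
Deposited intensity of the 10 regulators on a log axis, with triangles for PLZFlu/lu, squares for PLZF+/lu and circles for PLZF+/+, 1 array each and so no error bars. The dashed line is the background level of 108. The triangles of Rora, Maf and Tox2 lie more than 2-fold left of the circles, Tbx21 and Eomes lie left of the line, and levels of different genes are not comparable, since probes differ in brightness.

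Rora encodes RORα, a nuclear receptor that binds DNA mostly as a monomer. Its probe set 10586700 was at 281 in PLZFlu/lu, 672 in PLZF+/lu and 1498 in PLZF+/+ thymocytes. PLZFlu/lu cells thus held 18.8% of the PLZF+/+ intensity, a log2 difference of -2.41, and 4 of 19518 genes had a more negative one. The genotypes were evenly spaced on the log2 scale. PLZF+/lu was below PLZF+/+ by a log2 difference of -1.16, and PLZFlu/lu was below PLZF+/lu by one of -1.26. Rora was the one regulator past 2-fold at both steps.

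Maf encodes c-Maf, a basic leucine zipper factor that activates the Il4 gene in T helper 2 and NKT cells. Its probe set 10581992 was at 164 in PLZFlu/lu, 260 in PLZF+/lu and 874 in PLZF+/+ thymocytes. The log2 difference between PLZFlu/lu and PLZF+/+ was -2.41, the same size as for Rora. Most of it lay between PLZF+/lu and PLZF+/+, at -1.75, with -0.67 between PLZFlu/lu and PLZF+/lu. The heterozygous cells therefore held 29.7% of the PLZF+/+ intensity of Maf, while they held 44.8% of that of Rora. The PLZFlu/lu value is not far above the background level of 108. Apart from the arrays, the study reported lower Maf RNA by PCR in PLZFlu/lu iNKT and γδNKT cells. Those cells came from mixed bone marrow chimeras without the transgene.

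Tox2 encodes a protein with a high mobility group box, a DNA-binding fold that bends DNA, and is closely related to TOX. Its probe set 10478364 was at 409 in PLZFlu/lu, 461 in PLZF+/lu and 858 in PLZF+/+ thymocytes. The log2 difference of -1.07 between PLZFlu/lu and PLZF+/+ lies just past the 2-fold rule. The step between PLZF+/lu and PLZF+/+ was -0.89 and that between PLZFlu/lu and PLZF+/lu was -0.18. Tox, required for CD4 lineage thymocytes and for NKT cells, was at 4588 on each of the 3 arrays. Equal values on all 3 arrays were found for 46.8% of genes, so no stability of Tox is read from this.

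Lower by more than 2-fold in PLZF+/lu than in PLZF+/+ were Rora and Maf, 2 of 10, against 0.102% of all genes. Between PLZFlu/lu and PLZF+/lu it was Rora alone, 1 of 10, against 0.0769% of all genes. The 3 comparisons share arrays, so that a high or low value on one array enters 2 of them.

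**Figure D2:**
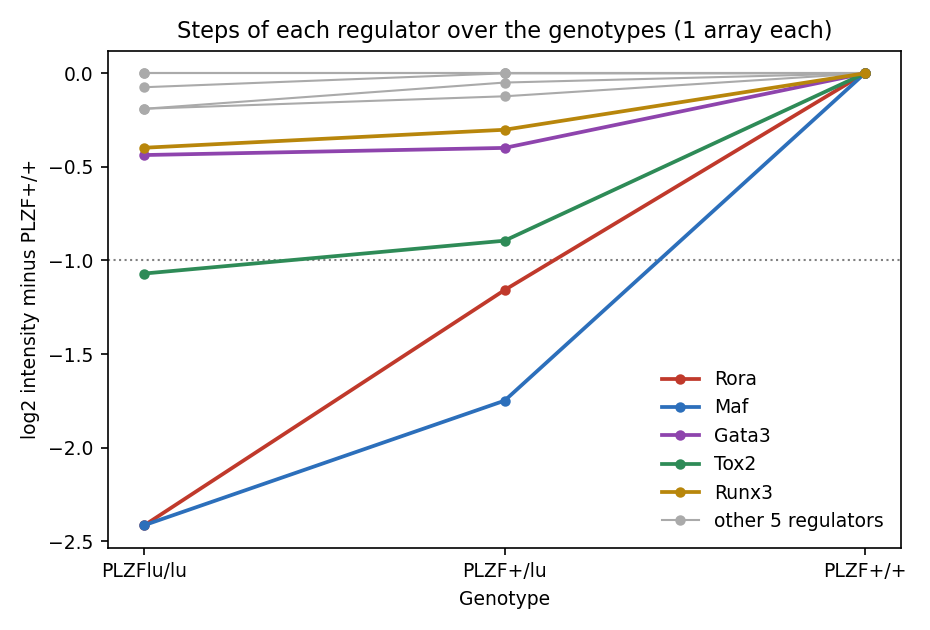
Log2 intensity of each regulator minus its PLZF+/+ value, by genotype, with 1 array each. Rora descends in even steps to -2.41, Maf reaches -1.75 already in PLZF+/lu, and Tox2, Gata3 and Runx3 differ little between PLZFlu/lu and PLZF+/lu; the dotted line marks 2-fold.

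The start regions of Rora and Tox2 are shown because these regulators were more than 2-fold lower in PLZFlu/lu cells. The RefSeq windows of GRCm38.p6 hold an entry for 8 of the 10, not for Maf and Tox. Each line gives the 250 bases before the most upstream start site, 5′ to 3′, and capitals mark letters of a searched motif. Rora has 1 RefSeq window and Tox2 has 5, of which the others were not searched. Which start site these cells use was not tested. Rora lies on the + strand at chr9:68653536-68653785 and Tox2 on the + strand at chr2:163202877-163203126.
Rora: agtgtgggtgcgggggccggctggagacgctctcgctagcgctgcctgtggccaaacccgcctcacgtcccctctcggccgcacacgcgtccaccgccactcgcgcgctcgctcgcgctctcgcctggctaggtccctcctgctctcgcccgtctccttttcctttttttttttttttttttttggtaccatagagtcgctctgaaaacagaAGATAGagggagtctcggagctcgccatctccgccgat
Tox2: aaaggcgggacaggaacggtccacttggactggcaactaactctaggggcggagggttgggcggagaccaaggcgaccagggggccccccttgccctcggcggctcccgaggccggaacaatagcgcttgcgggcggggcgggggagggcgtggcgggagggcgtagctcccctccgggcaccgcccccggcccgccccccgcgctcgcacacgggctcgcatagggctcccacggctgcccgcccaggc
The motifs searched, on both strands, were those of ROR, MAF, GATA, RUNX, T-box and NFIL3 factors. None was searched for Tox and Tox2. The ROR half-site was searched as AGGTCA, and the MAF half-site as TGCTGA. For GATA factors, which prefer an A or T before the core letters, the windows were searched with AGATAA. The form that ends in a different base is AGATAG. With T in the leading place the searched forms were TGATAA for the usual ending and, when the final base differed, TGATAG. For RUNX the common form is TGTGGT, while a less frequent one has TGCGGT. For T-box factors the letters were GGTGTGA. NFIL3 sites are nearly palindromic, and one form is TTATGTAA, whereas the fully palindromic one reads TTACGTAA. No 2 matches overlapped in the windows of these genes. Rora held 1 GATA match, which 22.9% of 15540 promoter windows hold, and Tox2 held none of the 6 motifs. Of the other windows, Gata3 held 1 MAF half-site (14.4% of windows), Nfil3 held 1 ROR half-site (12.1%) and Runx3 held 2 RUNX matches (17.5% have at least 1). T-box letters, in 3.15% of windows, and NFIL3 letters, in 0.907%, were in none of the 8. A match is a description of the letters and not a binding site. G and C made up 61.2% of the Rora window and 75.2% of the Tox2 window, against a median of 56.4%.

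Gata3 encodes a zinc finger factor that is essential for CD4 T cells and for type 2 cytokine genes. It was at 3175 in PLZFlu/lu, 3260 in PLZF+/lu and 4297 in PLZF+/+ thymocytes. The log2 difference between PLZFlu/lu and PLZF+/+ was -0.44, or 1.35-fold lower, and 1.51% of all genes were further below. Nearly all of it lay between PLZF+/lu and PLZF+/+ (-0.40). This difference is below 2-fold and has no replicate to set it against.

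Runx3 and Runx1 encode RUNX proteins, which bind DNA with the partner CBFβ and, among other roles, silence Cd4 in CD8 lineage cells. Runx3 was at 825 in PLZFlu/lu, 882 in PLZF+/lu and 1087 in PLZF+/+ thymocytes, a log2 difference of -0.40 between PLZFlu/lu and PLZF+/+. Runx1 was at 3896, 4293 and 4442 in the same order, a difference of -0.19. Runx3 in PLZF+/lu cells lay nearer to PLZFlu/lu and Runx1 nearer to PLZF+/+. Nfil3, which encodes a leucine zipper repressor required for NK cells and innate lymphoid cells, was at 126 in PLZFlu/lu, 132 in PLZF+/lu and 143 in PLZF+/+ cells, only a little above background.

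The T-box pair was not above background in any genotype. Tbx21 was at 72.7 on all 3 arrays. Eomes was at 56.4 in PLZFlu/lu and at 59.3 in both PLZF+/lu and PLZF+/+ cells. No direction is read from values at this level. Il2rb, which encodes a receptor chain for IL-2 and IL-15, was at 3941, 3690 and 3853 in PLZFlu/lu, PLZF+/lu and PLZF+/+ thymocytes. It is among the type 1 genes counted below, and its RNA level does not measure signalling.

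PLZF+/lu lay strictly between PLZFlu/lu and PLZF+/+ for 7 of the 10 regulators, against 11.4% of all genes and 17.4% of the 11973 brighter ones. The 3 others were Tbx21, Eomes and Tox. When the log2 distance was set to 0 in PLZFlu/lu and 1 in PLZF+/+ cells, PLZF+/lu was at 0.52 for Rora, 0.28 for Maf and 0.16 for Tox2. It was at 0.09 for Gata3, 0.24 for Runx3, 0.35 for Nfil3 and 0.74 for Runx1, where rescaling moved Gata3 between 0.019 and 0.14, Runx3 between 0.18 and 0.31 and Runx1 between 0.59 and 1.01. On the linear scale the positions were 0.32 for Rora, 0.14 for Maf and 0.12 for Tox2. Among the 53 genes lower by more than 2-fold in PLZFlu/lu the median log2 position was 0.39, and 36 of them lay below Rora, 14 below Maf and 6 below Tox2. PLZF+/lu was at 0.68 for Zbtb16 itself, at 0.67 for Id2, which encodes an inhibitor of E proteins, and at 0.80 for Lmo4, a LIM-domain adaptor. Zbtb7b, which encodes the transcription factor ThPOK, was at 0.36. Maf, Tox2 and Zbtb7b in heterozygous cells were thus nearer to PLZFlu/lu, and Zbtb16, Id2 and Lmo4 nearer to PLZF+/+. The intermediate place was a feature of 50 of the 53 genes and is not particular to the regulators.

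**Figure D3:**
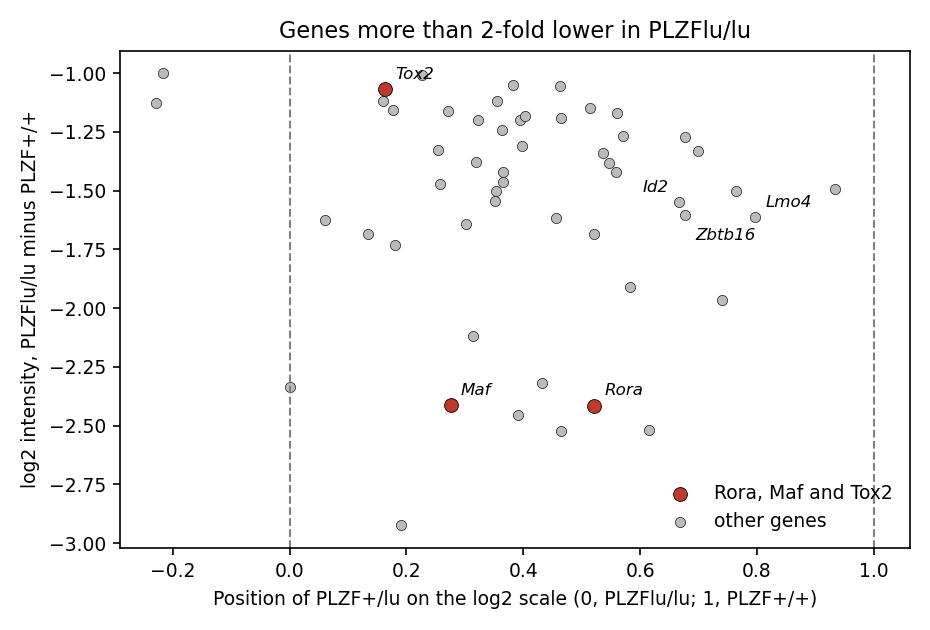
The 53 genes more than 2-fold lower in PLZFlu/lu by where PLZF+/lu falls in log2 terms (horizontal axis, 0 for PLZFlu/lu and 1 for PLZF+/+) and their log2 difference between PLZFlu/lu and PLZF+/+ (vertical axis), with 1 array per genotype. Tox2 at 0.16, Maf at 0.28 and the unlabelled Zbtb7b at 0.36 lie left of Rora at 0.52. Zbtb16, Id2 and Lmo4 lie right of Rora.

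Genes with the most similar pattern were sought among 11303 candidates for the 3 regulators of largest range, by the Euclidean distance of their centred log2 values over the 3 genotypes. Nearest to Rora were the chemokine receptor gene Ccr2, at a distance of 0.14, the guidance receptor gene Robo1 (0.18) and the growth factor gene Igf2 (0.21). Nearest to Maf were Tns4, of the tensin family (0.23), Cacna1e, which encodes the pore subunit of a voltage-gated calcium channel (0.24), and again Robo1 (0.32). Rora and Maf were 0.48 apart from each other. Nearest to Tox2 were Tcf19 (0.04), which encodes a PHD finger protein, the actin-capping protein gene Capg (0.06) and the galectin gene Lgals1 (0.08). Tox2 has a smaller range, which makes small distances more common. Each distance rests on 3 arrays that all the genes share.

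The relatives of the regulators are described by family, and their counts are to be read beside all genes, of which 58.1% were equal between PLZFlu/lu and PLZF+/+ and 24.9% lower in PLZFlu/lu. The ROR and REV-ERB receptors other than Rora had 3 measured genes, of which Nr1d1 was lower, at 173, 173 and 203 in PLZFlu/lu, PLZF+/lu and PLZF+/+ cells, and 2 were equal. Of 7 MAF and BACH genes other than Maf, none was lower, 3 were higher and 4 equal. Bach2, a repressor that keeps T cells in a resting state, was at 1231 in PLZFlu/lu, 801 in PLZF+/lu and 449 in PLZF+/+ thymocytes, a log2 difference of 1.46 and so opposite to Maf. GATA factors and their FOG cofactors had 7 measured genes other than Gata3, of which 2 were lower and 5 equal, and the cofactor gene Zfpm1 was at 996, 969 and 1011 in the same order. Of 13 further T-box genes 1 was lower, 2 were higher and 10 equal, with Mga, which encodes a partner of MAX, at a log2 difference of 0.20 and Tbx6, a factor of early mesoderm, at 0.13. Tox4 was at 1755 in PLZFlu/lu, 1686 in PLZF+/lu and 2284 in PLZF+/+ cells, a log2 difference of -0.38, so that PLZF+/lu was the lowest. Of 4 RUNX partners and relatives the corepressor gene Cbfa2t2 was lower (-0.25) and 3 were equal, among them Cbfb. Dbp, Tef and Hlf, the PAR bZIP factors whose sites NFIL3 can occupy, were equal between PLZFlu/lu and PLZF+/+. Above background on at least 1 array were 2 of the 3 ROR and REV-ERB, 5 of 7 MAF and BACH and 4 of 7 GATA and FOG relatives. So were 6 of 13 T-box, 1 of 2 TOX, 3 of 4 RUNX and 2 of 3 PAR bZIP relatives. Gata1, counted as lower, and Nrl, counted as higher, were below background on every array.

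Genes associated with each effector programme were set beside the regulators. Of 21 measured type 1 genes none differed by more than 2-fold between PLZFlu/lu and PLZF+/+, 4 were lower, 4 higher and 13 equal, and 10 were above background. Over all genes 24.9% were lower, 58.1% equal and 0.272% lower by more than 2-fold. With genes below background counted, the type 1 shares were near these. The lower genes Ifng, Gzmb and Il18rap were below background on every array, while Il12rb2 and the 4 higher genes were above it. Of genes brighter than 108 on at least 1 array, 35.7% were lower. The IL-12 receptor gene Il12rb2 was at 341 in PLZFlu/lu, 500 in PLZF+/lu and 516 in PLZF+/+ cells, and the chemokine gene Ccl5 was at 144, 147 and 133. Of 14 measured genes of the type 2 and IL-10 programme 9 were lower, 2 higher and 3 equal, with a median log2 difference of -0.13, and 8 were above background. Lower were 24.9% of all genes and 35.7% of those brighter than 108 on at least 1 array. The member past 2-fold was Il4ra, the IL-4 receptor chain, which was higher, at 2891 in PLZFlu/lu, 1759 in PLZF+/lu and 1430 in PLZF+/+ cells. Il17rb, the receptor chain for IL-25, was 1.82-fold lower, at 2974, 4332 and 5404 in the same order. Of 14 measured type 3 genes 4 were lower, 2 higher and 8 equal, and none passed 2-fold, with the lower and equal shares again near those of all genes. Il21r, the IL-21 receptor, was higher by 0.65 on the log2 scale and Tmem176b, a membrane protein gene linked to RORγt cells, was lower, with a difference of -0.46.

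RORα activates and REV-ERB and NFIL3 proteins repress clock genes through shared or similar elements. Of 15 measured clock genes other than Nfil3, 7 were lower, 2 higher and 6 equal in PLZFlu/lu, with a median of 0.00 and none past 2-fold, and 13 were above background. The share of lower genes was 24.9% over all genes and 35.7% over brighter ones. Arntl, which encodes BMAL1 and is a classical RORα target, was at 624 in PLZFlu/lu, 682 in PLZF+/lu and 835 in PLZF+/+ thymocytes, a log2 difference of -0.42. The repressor gene Cry1 was at 572, 611 and 729 in the same order, a difference of -0.35. No source used here gives the hour of day at which thymi were taken.

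Of 13 measured genes of the CD4 and CD8 lineage choice, 1 was lower by more than 2-fold and 1 higher, against 0.272% and 0.159% of all genes. Zbtb7b, which encodes the CD4 lineage factor ThPOK, was at 125 in PLZFlu/lu, 179 in PLZF+/lu and 335 in PLZF+/+ cells. Cd8b1, the CD8 β chain, was at 2958, 2263 and 1290 in the same order, although cells had been sorted without CD8α. For Zbtb7b the study found by PCR no consistent difference between PLZFlu/lu and PLZF+/+ NKT cells of mice without the transgene. Of 8 measured markers of CD4+CD8+ thymocytes, Cd8b1 was the one past 2-fold and the summed intensity was 5957 in PLZFlu/lu, 4985 in PLZF+/lu and 3848 in PLZF+/+ cells. Higher in PLZFlu/lu than in PLZF+/+ were also Cd8a, by 0.70 on the log2 scale, Dntt (0.38), Rag1 (0.28) and Arpp21 (0.28). That made 5 of the 8 higher, against 3308 of all 19518 genes. All mice lack Rag1, so its signal is not a sure marker of such cells. Rag1 and Dntt were lowest in PLZF+/lu, at 211 and 157. Ptcra and Cd1d1 were equal in all 3 arrays, at 167 and 1052, and Rag2 was below background. The part of such cells in the values of Rora, Maf and Tox2 was not tested. Of 43 other measured regulators of lymphocytes, 4 were lower by more than 2-fold and 2 higher, 19 were lower to any degree, 11 higher and 13 equal, and 41 were above background. Over all genes 0.272% were lower and 0.159% higher by more than 2-fold, and 24.9% were lower to any degree, or 35.7% of brighter genes. The 4 were Zbtb16, Id2, Zbtb7b and Lmo4, and the 2 were Bach2 and Stat4, the signal transducer of IL-12, at 1933 in PLZFlu/lu, 1373 in PLZF+/lu and 787 in PLZF+/+ cells. The study named most of these 6 genes from the same arrays, so the counts are not independent evidence. Zbtb16 is the mutated gene itself, and Zbtb7b and Bach2 were also counted in lists described above, since the lists overlap.

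**Figure D4:**
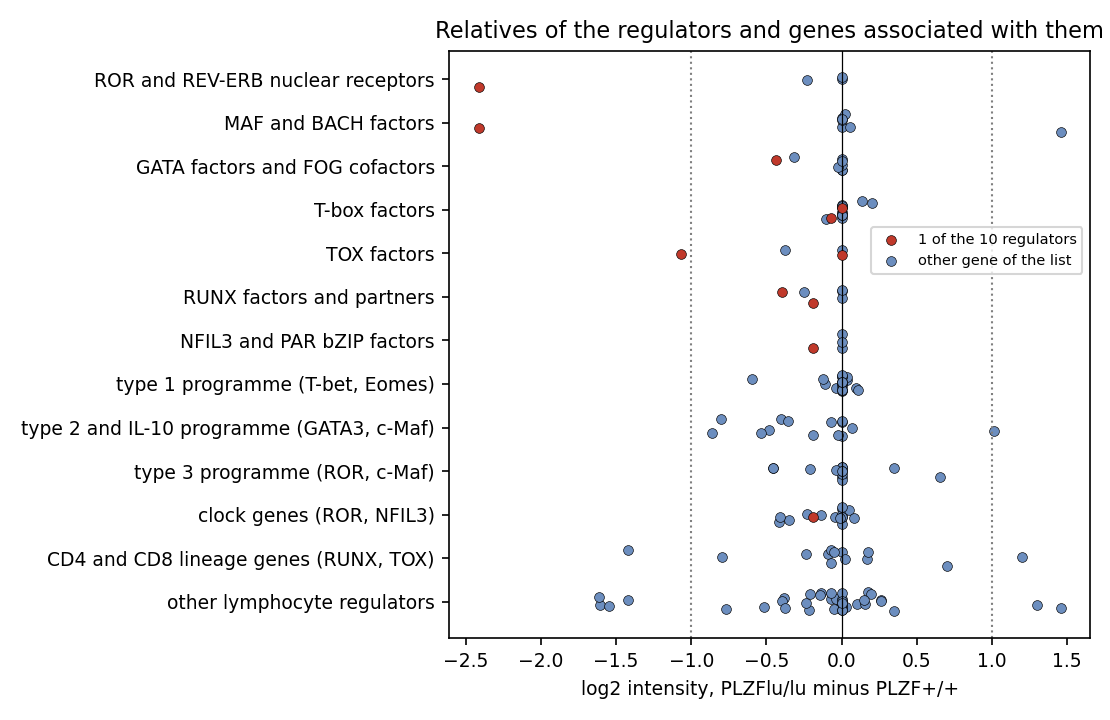
Log2 difference between PLZFlu/lu and PLZF+/+ for the measured genes of 13 lists, with red points for the 10 regulators and blue points for other genes, 1 array per genotype, and dotted lines at 2-fold. Rora, Maf and Tox2 lie left of the dotted line at -1. Other genes of their families lie within 2-fold, among them Tox4 at -0.38 and Nr1d1 at -0.23, apart from Bach2 at 1.46.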

How the data were processed

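GenePattern was the authors' software (Multiplot, MultiplotPreprocess, ExpressionFileCreator), and control probe sets had been taken out. For each array 24800 linear intensities were deposited, and mm8 is named in the submitters' processing notes. No source used here states how probes were summarised and scaled. Intensities were used as deposited and compared as log2 differences. All 3 columns carry a sample name. Probe sets with exactly 1 annotated gene (21065) were kept, 1187 with several genes and 2548 with none were not, and symbols were updated by gene identifier for 20983. For 874 genes with several probe sets the one of highest mean log2 value was used.

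No test was run, since there was 1 array per genotype. Named genes are the 10 regulators, in each of 13 lists the genes past 2-fold or, with fewer than 2 of these, those of largest difference above background, and the 3 nearest in pattern to each of 3 regulators. The regulators and lists were chosen with earlier results of these data known. Alternatives were quantile normalization, median centring, cyclic loess, adding 32, leaving out dim probe sets, thresholds of 1.5-fold and 3-fold, the mean over probe sets, and the mean of PLZF+/lu and PLZF+/+ as reference. Counting was checked on simulated data. Python 3.11.15, numpy 2.4.6, pandas 2.3.3, matplotlib 3.10.9, R 4.3.3 and limma 3.58.1 were used.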

Additional observations from a re-analysis of the deposited data

How the results depend on the processing

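Under quantile normalization, median centring, cyclic loess, 32 added, omission of dim probe sets and the mean over probe sets, Rora, Maf and Tox2 stayed past 2-fold between PLZFlu/lu and PLZF+/+, with log2 differences of -2.41 to -2.29 for Rora, -2.41 to -2.21 for Maf and -1.07 to -1.01 for Tox2. At 1.5-fold 3 regulators passed between PLZF+/lu and PLZF+/+ and 2 between PLZFlu/lu and PLZF+/lu, and at 3-fold 1 and 0. Among genes of the lists other than the 10, the 8 past 2-fold became 15 at 1.5-fold, 2 at 3-fold and 4 against the mean of PLZF+/lu and PLZF+/+. Against that mean, Tox2 was at -0.62 and no longer past 2-fold, which is partly built in, since PLZF+/lu lay between. PLZF+/lu lay between the others for 7 regulators with quantile normalization too, but Runx1 was lost (log2 difference from PLZF+/+ of 0.001) and Eomes, below background, was gained. Eomes was likewise the gain where median centring and cyclic loess gave 8. Over all genes, the 53 lower and 31 higher in PLZFlu/lu became 49 and 19 with 32 added, 167 and 113 at 1.5-fold, 19 and 5 at 3-fold, and 27 and 14 against that mean. Position ranges under rescaling, an alternative chosen after seeing the data, were 0.51 to 0.53 for Rora, 0.26 to 0.28 for Maf, 0.14 to 0.18 for Tox2 and 0.26 to 0.35 for Nfil3, and wider for Gata3 (0.019 to 0.14), Runx3 (0.18 to 0.31) and Runx1 (0.59 to 1.01). The equal values of Tox moved by up to 0.03 in either direction under rescaling. No paired analysis was possible because each genotype has 1 array. Probe sets near background limit what can be said of Tbx21, Eomes and Nfil3.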

Other observations

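Several genes were singled out after their values were seen. In the type 2 list, Ccr4, a receptor of T helper 2 cells, was at 3086 in PLZFlu/lu, 4188 in PLZF+/lu and 4486 in PLZF+/+ thymocytes. Plac8 was at 831, 883 and 1448 in the same order, so that PLZF+/lu was close to PLZFlu/lu, as it was for Tox2 and Gata3. The cytokine genes Il4 and Il13 were at 170 and 216 in PLZFlu/lu, 170 and 271 in PLZF+/lu, and 224 and 303 in PLZF+/+ cells. Irf4, which encodes a factor induced by receptor signals, was at 79.3 in PLZFlu/lu, 95.8 in PLZF+/lu and 135 in PLZF+/+ cells, and so above the background level only in PLZF+/+. Itgae, the αE integrin gene, was at 1044, 1859 and 1811 in the same order, with PLZF+/lu close to PLZF+/+. None of these genes passed 2-fold between PLZFlu/lu and PLZF+/+.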
